A study of Mus musculus with 18 samples.

Results

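Acute phase proteins are plasma proteins that the liver makes in larger amounts during inflammation, infection and injury. Interleukin-6 acts on hepatocytes mainly through the transcription factor STAT3, and interleukin-1 and tumour necrosis factor act through NF-kB and C/EBP factors. Members of the group carry lipids (serum amyloid A), bind free haemoglobin, haem, iron carriers or copper, or bind bacterial products. Their transcripts are among the most abundant in liver, and they are followed as signs of hepatic inflammation in steatotic liver disease.

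Described here are 10 acute phase genes, taken from the 33235 genes of each deposited table by their symbols. They are the serum amyloid A genes Saa1, Saa2 and Saa3, the orosomucoid genes Orm1 and Orm2, haptoglobin (Hp), hemopexin (Hpx), lipocalin 2 (Lcn2), lipopolysaccharide binding protein (Lbp) and ceruloplasmin (Cp). All 10 passed the filter on low values in both tables. The genes were grouped by function, at a time when earlier results of these data were known.

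RNA was measured in bulk liver of mice labelled WT. The mice received GalNAc-conASO, a control antisense oligonucleotide (ASO), or GalNAc-Mdm2ASO, an ASO against the transcript of Mdm2, the ubiquitin ligase that targets p53. GalNAc is a sugar taken up through the asialoglycoprotein receptor of hepatocytes. All mice were on a disease-inducing diet, either HFHC, which the labels give only as this abbreviation, or CDAHFD, a diet high in fat that lacks choline and has defined amino acids. The sources used here name no group on a standard diet and do not give age, sex, strain, dose or duration. The 18 samples were 4 conASO and 4 Mdm2ASO on HFHC, and 5 and 5 on CDAHFD. Mdm2ASO replicates 6 and 7 on HFHC held the same value in every gene and were counted as 1 library, 6-7, which left 17 libraries. The labels do not say that replicates are separate animals, so p-values measure the spread between these samples.

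Depth was 17.8 to 18.8 M reads per library on HFHC and 22.4 to 31.5 M on CDAHFD. Mdm2 was at 38.3% of the control mean on HFHC (log2 fold change -1.39, adjusted p = 1.1e-05) and at 41.3% on CDAHFD (-1.29, adjusted p = 3.1e-05), with no overlap between groups. Albumin (Alb), a defining hepatocyte product, was 754779 to 968792 normalized read counts in HFHC controls and 988719.8 to 1670145 under Mdm2ASO. These groups did not overlap, but the test was not passed (log2 fold change 0.52, adjusted p = 0.622). On CDAHFD Alb was 868295 to 1549781 and 998613 to 1250897. Of 12 hepatocyte markers, 0 passed the test on either diet. Of all genes tested, 16.8% were called higher and 13.8% lower on HFHC, and 6.12% and 6.86% on CDAHFD. The SE of Alb was 0.72 on HFHC and 0.37 on CDAHFD, so the lack of a call does not show an equal level. Of these markers, Apoa1, Apoa2 and Apob were lower without overlap on HFHC, as were 18.0% of all genes tested. Apoa2, Asgr1 and Asgr2 were higher without overlap on CDAHFD, where that share of all genes was not counted. Summed neutrophil markers were 634 to 905 in HFHC controls and 3266 to 4434 under Mdm2ASO, while on CDAHFD they were 572 to 889.9 and 644 to 1027. In bulk liver, fewer cells of a type and less RNA per cell cannot be told apart.

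The inducible serum amyloid A genes are close neighbours. Saa1 (ENSMUSG00000074115), Saa2 (ENSMUSG00000057465) and Saa3 (ENSMUSG00000040026) lie together on chromosome 7, at 46740497 to 46742980 (minus strand), 46751790 to 46754313 (plus strand) and 46711998 to 46715700 (minus strand) in GENCODE M21 on GRCm38. The reads were aligned to GRCm39, so these positions serve as orientation only. The sequences 250 to 51 bases before the RefSeq start of each gene (GRCm38.p6) are shown because Saa1 and Saa2 moved with each other and against Saa3 on HFHC. They read in the direction of the gene, and capitals mark letters that match TTNNGNAA (C/EBP) or GGNNTTTCC (NF-kB) on either strand.
Saa1, chr7:46743031-46743230, minus strand: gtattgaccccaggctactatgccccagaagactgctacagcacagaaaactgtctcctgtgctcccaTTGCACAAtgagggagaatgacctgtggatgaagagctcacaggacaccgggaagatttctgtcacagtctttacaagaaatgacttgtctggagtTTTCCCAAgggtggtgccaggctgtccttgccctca
Saa2, chr7:46751583-46751782, plus strand: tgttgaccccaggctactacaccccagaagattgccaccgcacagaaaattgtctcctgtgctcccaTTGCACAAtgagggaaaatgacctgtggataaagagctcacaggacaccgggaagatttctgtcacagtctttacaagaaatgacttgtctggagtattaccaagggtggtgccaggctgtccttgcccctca
Saa3, chr7:46715727-46715926, minus strand: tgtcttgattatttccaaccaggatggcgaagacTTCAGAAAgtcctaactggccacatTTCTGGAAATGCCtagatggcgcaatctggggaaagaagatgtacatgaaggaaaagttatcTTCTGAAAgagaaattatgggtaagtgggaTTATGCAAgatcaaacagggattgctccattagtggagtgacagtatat
In the full 250-base windows, Saa1 and Saa2 were 94.8% identical, Saa1 and Saa3 48.2%, and Saa2 and Saa3 47.9%. The C/EBP letters TTGCACAA stood 182 bases before the start of Saa1 and 183 bases before that of Saa2. A further match, TTTCCCAA, stood 86 bases before the start of Saa1. Saa3 held 4 C/EBP matches, of which the one at 191 bases overlapped its NF-kB match GGAAATGCC at 187 bases.

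Windows were found for 7 of the 10 members (Saa1, Saa2, Saa3, Orm2, Hpx, Lcn2 and Cp). Cp had windows starting at 19956804 and at 19956999. All 7 members held C/EBP letters, Cp in both windows, and 36.8% of all 32851 RefSeq windows of that length also held them. The NF-kB letters were in Saa3 and in the Cp window at 19956999 only, against 4.93% of all windows. The STAT letters TTCNNNGAA were in 0 of 7, against 7.02%, which says only that these letters are not in these windows. The TATA box letters TATAAA were in Orm2 and in the same Cp window as the NF-kB letters (12.4% of all windows). A match is a description of the letters and not a site shown to be bound.

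Across the group, 5 of 10 members fell under Mdm2ASO on HFHC (Saa1, Saa2, Orm1, Orm2 and Cp) and 1 rose (Saa3). The calls were made with limma at an adjusted p under 0.05, and over all 17441 genes tested the same rule called 13.8% lower and 16.8% higher. On CDAHFD 4 of 10 fell (Cp, Hpx, Lbp and Lcn2) and 0 rose, against 6.86% lower and 6.12% higher of 16803 genes. Cp was the 1 member that fell on both diets. The median log2 fold change of the members was -0.48 on HFHC and -0.22 on CDAHFD, where the medians of all genes were -0.01 and 0.00. Counted by library, the groups did not overlap for 7 members that were lower and 1 that was higher on HFHC, against 18.0% and 20.7% of all genes tested. On CDAHFD they did not overlap for 4 members, all lower, against 5.62% of all genes. The split of all calls on HFHC moved with the scaling: 55.0% of called genes were higher as reported, 69.9% with equal library totals and 40.0% with quantile normalization, which shifted the median of all genes by 0.10 and -0.11. Under both scalings Saa1, Saa2, Orm2 and Cp fell and Saa3 rose on HFHC, whereas Orm1 was no longer called.

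**Figure D1:**
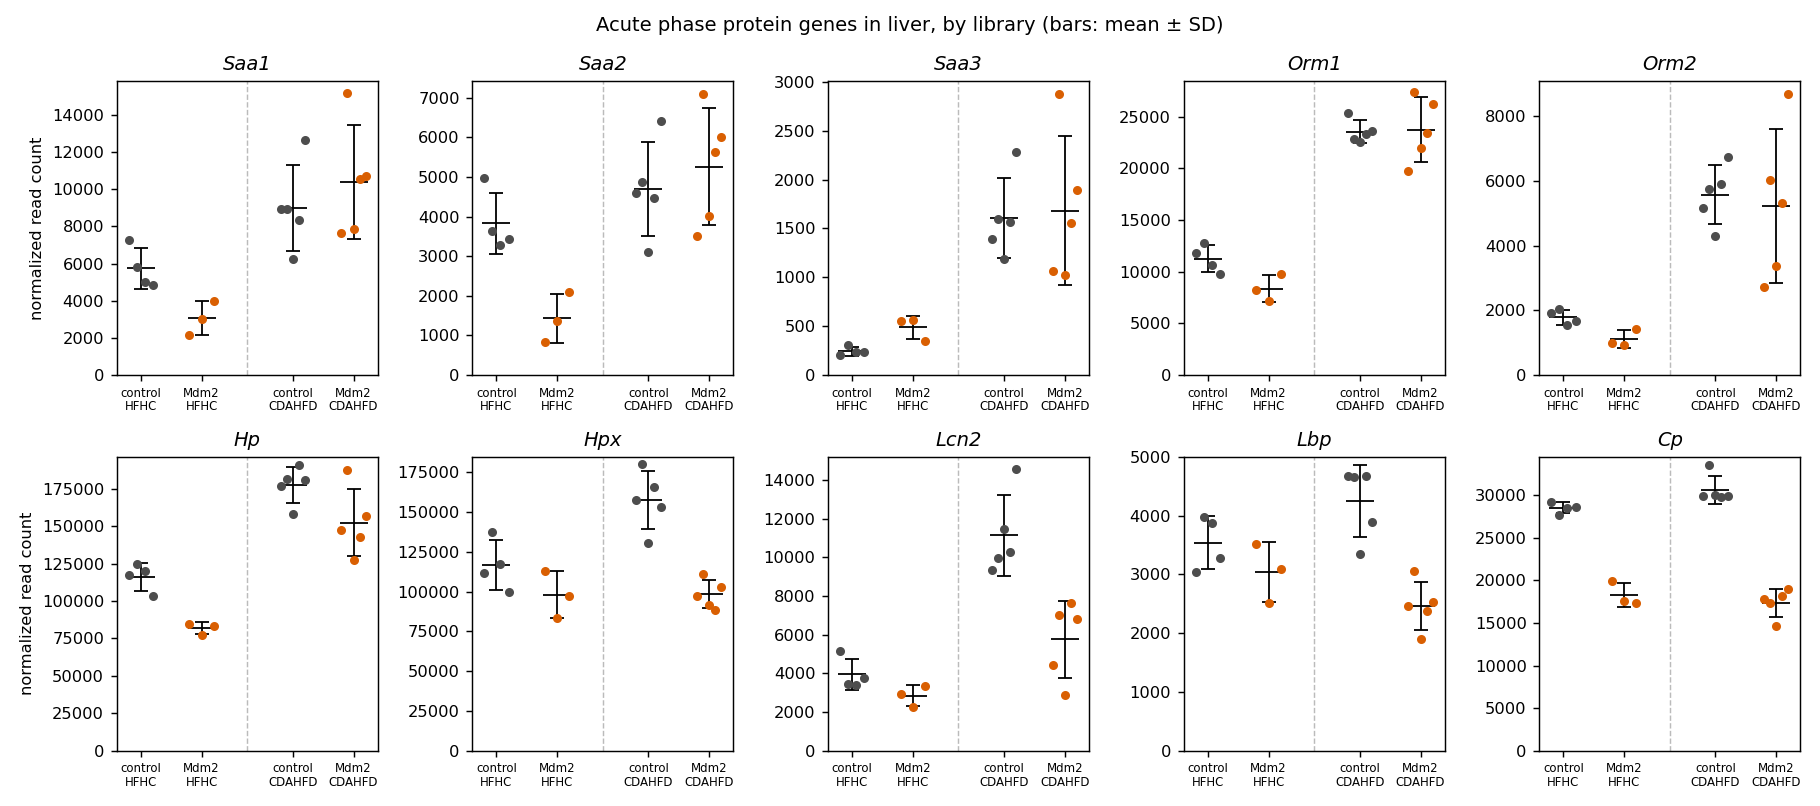
Normalized read counts of the 10 genes in each library (points), with the mean ± SD of each group, on linear axes from 0. The dashed line separates the 2 diets, whose tables were normalized separately. Saa2 in Mdm2ASO libraries on HFHC lies between 835 and 2082, below all controls, and Cp lies below all controls on both diets.

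**Figure D2:**
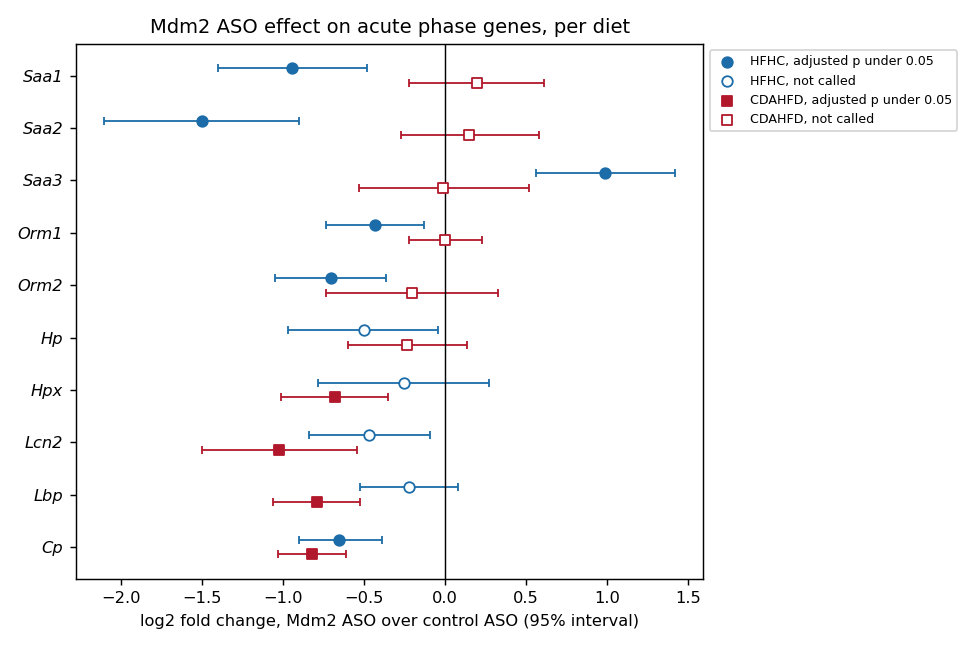
Log2 fold change of each gene under Mdm2ASO with its 95% interval, for HFHC (circles) and CDAHFD (squares). Filled points had an adjusted p under 0.05. Saa2 is at -1.50 on HFHC and 0.15 on CDAHFD.

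Saa1 and Saa2 encode the inducible serum amyloid A proteins that hepatocytes secrete and that travel with high-density lipoprotein. On HFHC, Saa1 in control replicates 1, 2, 4 and 5 was 7287, 5833, 4991 and 4867 normalized read counts. In Mdm2ASO libraries 6-7, 9 and 10 it was 2151, 3009 and 3983. Every Mdm2ASO library was below every control, and the mean fell to 53.1% (3048 ± 916, n = 3, against 5745 ± 1115, n = 4; SD). The log2 fold change of Saa1 was -0.94 (SE 0.21, adjusted p = 0.00744).

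Saa2 on HFHC was 4972, 3628, 3278 and 3442 in controls, and 835, 1367 and 2082 in Mdm2ASO libraries 6-7, 9 and 10. No Mdm2ASO library reached the control range, and the mean fell to 37.3%, the lowest share among the 10 members. The log2 fold change of Saa2 was -1.50 (SE 0.27, adjusted p = 0.00252). The order of the 3 Mdm2ASO libraries was the same for Saa1 and Saa2, with 6-7 lowest and 10 highest.

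Saa3, the family member best known from macrophages and adipocytes, went the other way on HFHC. It was 199, 306, 234 and 233 in controls and 554, 561 and 349.6 in Mdm2ASO libraries 6-7, 9 and 10. The groups did not overlap, and the mean rose to 201% of the control mean (0.99 on the log2 scale, SE 0.19, adjusted p = 0.00403). Library 10, the highest of its group in Saa1 and Saa2, was the lowest in Saa3. Macrophage markers rose with it on HFHC: 6 of 14 rose (42.9%, against 16.8% of all genes) and 1 (Gpnmb) fell (7.14%, against 13.8%). Their summed level was 9169 to 14992 in controls and 24869 to 31293 under Mdm2ASO. Clec4f, a defining Kupffer cell marker, was 783 to 1747 and 1261 to 1582. Of the adipocyte markers, Adipoq was at 1.12 or less in all HFHC libraries and Lep was at 0. Others were well above 0. Cfd had a mean of 465 in controls and 1039 under Mdm2ASO, Pnpla2 2548 and 2416, and Adrb3 418 and 502. Cfd, Pnpla2 and Adrb3 did not pass the test. The summed adipocyte list was 3296 to 3607 in controls and 2383 to 5354 under Mdm2ASO. The part of these cells in the rise of Saa3 was not tested.

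On CDAHFD none of these 3 genes passed the test. Saa1 was 8922, 8924, 6227, 8323 and 12628 in control replicates 1 to 5, and 7621, 15179, 7862, 10576 and 10731 in Mdm2ASO replicates 6 to 10. The ranges overlapped (log2 fold change 0.20, 95% interval -0.22 to 0.61, adjusted p = 0.550). Saa2 ranged from 3101 to 6423 in controls and from 3519 to 7110.2 under Mdm2ASO (0.15, -0.27 to 0.58, adjusted p = 0.660). Saa3 ranged from 1191 to 2279.8 and from 1027 to 2876 (-0.01, -0.53 to 0.52, adjusted p = 0.991). The sign of the Saa3 value turned under other scalings and tools, so it has no direction here.

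The difference between the diets was tested directly, as the CDAHFD effect minus the HFHC effect. It passed for 3 members. Saa1 (1.14, SE 0.32, adjusted p = 0.0147) and Saa2 (1.66, SE 0.36, adjusted p = 0.00273) had a higher effect on CDAHFD, which 9.83% of 16333 genes also had. Lbp had a lower one (-0.57, SE 0.20, adjusted p = 0.0486), against 13.6% of genes. Of all genes whose effect differed, 41.9% had the higher effect on CDAHFD, 26.7% with equal library totals and 56.1% with quantile normalization (shifts of the median by -0.12 and 0.10). Without HFHC library 6-7 the Saa1 difference was 0.91 with an adjusted p of 0.0558, while Saa2 passed with every library left out in turn. Without HFHC library 6-7, 1 member was called in place of 3. The Lbp call was lost under 15 of 28 alternatives (adjusted p 0.00957 to 0.143). Saa3 differed by -0.99 (SE 0.37) and did not pass (adjusted p = 0.0627), but it passed under 6 of 28 alternatives. Orm1 was similar, at 0.44 (adjusted p = 0.0688), and passed under 5 of 28.

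Ratios of reads within a library do not depend on how libraries were scaled. These ratios were chosen after the values were seen, so they are given without a test. Saa2 per 100 Saa1 reads was 62.2 to 70.7 in HFHC controls and 38.8 to 52.3 under Mdm2ASO, with no overlap. On CDAHFD the ranges were 49.8 to 54.6 and 46.2 to 56.1, and overlapped. Saa3 per 100 Saa1 reads was 2.73 to 5.25 in HFHC controls and 8.78 to 25.7 under Mdm2ASO. On CDAHFD it was 15.6 to 19.1 and 13.1 to 18.9, so HFHC controls were the lowest of the 4 groups in this ratio. Saa1 and Saa2 transcripts were 93.9% identical in GENCODE M21 but shared 0 windows of 100 bases, while Saa1 and Saa3 were 60.3% identical. How reads that fit both Saa1 and Saa2 were assigned is not given in the sources used here, which makes their separate levels uncertain.

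**Figure D3:**
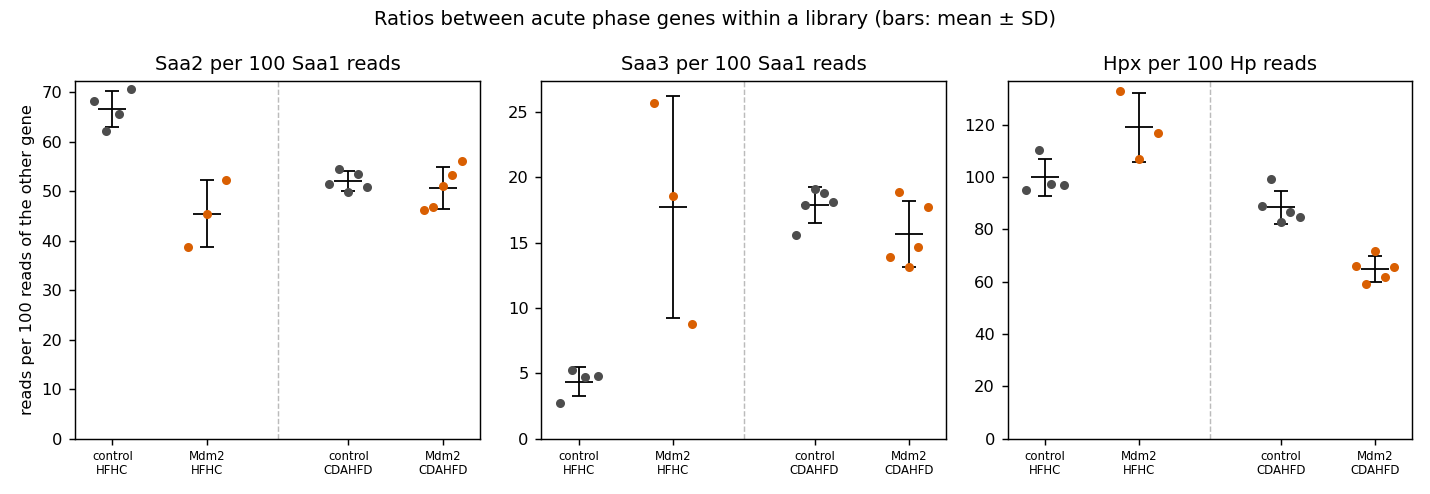
Reads of Saa2 per 100 reads of Saa1, of Saa3 per 100 of Saa1, and of Hpx per 100 of Hp in each library (points), with mean ± SD, on axes from 0. On HFHC the first ratio is lower and the second higher in every Mdm2ASO library than in every control. On CDAHFD the third is lower in every Mdm2ASO library.

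Orm1 (ENSMUSG00000039196) and Orm2 (ENSMUSG00000061540) encode alpha-1-acid glycoproteins, which bind drugs and small hydrophobic molecules in plasma. They lie on chromosome 4 at 63344560 to 63348163 and 63362449 to 63365878, both on the plus strand (GRCm38). On HFHC, Orm2 was 1909, 2048, 1532 and 1662 in controls and 995, 922 and 1414 in Mdm2ASO libraries 6-7, 9 and 10. There was no overlap, and the mean fell to 62.1% (log2 fold change -0.70, SE 0.15, adjusted p = 0.00756). With 1 fit over all 4 groups its adjusted p was 0.0726.

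Orm1 on HFHC was 11837, 12789, 10650.5 and 9769 in controls and 8212, 7133 and 9733 under Mdm2ASO. The highest Mdm2ASO library was only just below the lowest control. The mean fell to 74.2% (log2 fold change -0.43, SE 0.13, adjusted p = 0.0346). This call was lost under 7 of 18 alternatives, with an adjusted p of up to 0.152. On CDAHFD, Orm1 had a log2 fold change of 0.00 (95% interval -0.22 to 0.23, adjusted p = 0.988), with 22583 to 25373 in controls and 19755 to 27429.9 under Mdm2ASO. Orm2 was 4309.9 to 6757 and 2714 to 8703 there (-0.20, -0.73 to 0.33, adjusted p = 0.643). Its coefficient of variation on CDAHFD was 16.3% in controls and 45.3% under Mdm2ASO.

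The Orm1 and Orm2 transcripts were 91.0% identical, and 47 of 676 windows of 100 bases (6.95%) were shared, so reads could be split between them. Orm2 per 100 Orm1 reads was 14.4 to 17.0 in HFHC controls and 12.1 to 14.5 under Mdm2ASO, ranges that overlapped. On CDAHFD it was 19.1 to 28.6 and 13.7 to 33.1.

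Hp and Hpx encode the plasma scavengers of free haemoglobin and of haem. They were the 2 highest members per kilobase of transcript in every group. In HFHC controls Hp was at 86556 ± 6946 and Hpx at 77783 ± 10562 normalized counts per kilobase (SD, n = 4). Their mean ± SD overlapped, though Hp was above Hpx in each of the 4 controls. Orm1 (14531 ± 1709.5) and Saa1 (9433 ± 1830.1) came next, then Cp (6973 ± 159), Saa2 (6320.2 ± 1278), Lcn2 (4308 ± 890.0), Orm2 (2306 ± 301), Lbp (1402 ± 179.6) and Saa3 (438 ± 81.4). Cp and Saa2, and Saa2 and Lcn2, overlapped in mean ± SD, though Saa2 was above Lcn2 in each of the 4 controls. In CDAHFD controls the order was Hp (132163 ± 8987), Hpx (105073 ± 12044), Orm1 (30394 ± 1414), Saa1 (14786 ± 3791), Lcn2 (12175 ± 2272), Saa2 (7741 ± 1957), Cp (7493 ± 401), Orm2 (7204 ± 1173), Saa3 (2890.5 ± 740.4) and Lbp (1682 ± 241; SD, n = 5). There Saa1 and Lcn2, Saa2 and Cp, and Cp and Orm2 overlapped in mean ± SD, and the order within each pair was not the same in every control.

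Hp (ENSMUSG00000031722, chromosome 8, 109575128 to 109579172, minus strand, GRCm38) was 117621, 124790.4, 120126 and 103132 in HFHC controls and 84793, 77639 and 83634 in Mdm2ASO libraries 6-7, 9 and 10. The groups did not overlap and the Mdm2ASO mean was 70.5% of the control mean. Hp did not pass the test with limma (log2 fold change -0.50, SE 0.21, adjusted p = 0.0961), whereas it passed with edgeR and with DESeq2 on recovered reads. With quantile normalization the value was -0.14 (adjusted p = 0.451). On CDAHFD Hp was 158127 to 190948 in controls and 127725 to 187592 under Mdm2ASO, and the ranges overlapped (-0.23, 95% interval -0.60 to 0.14, adjusted p = 0.410).

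Hpx (ENSMUSG00000030895, chromosome 7, 105591613 to 105600137, minus strand, GRCm38) was lower on CDAHFD. It was 157614, 179940.5, 130763, 165789.9 and 153416 in control replicates 1 to 5, and 97145, 110813, 91814, 88554 and 102970.1 in Mdm2ASO replicates 6 to 10. Every Mdm2ASO library was below every control, and the mean fell to 62.4% (log2 fold change -0.68, SE 0.16, adjusted p = 0.0121). On HFHC Hpx was 99845 to 137742 in controls and 83309.7 to 112839 under Mdm2ASO, with overlap (-0.25, 95% interval -0.78 to 0.27, adjusted p = 0.453). With quantile normalization the HFHC value of Hpx was 0.09. The effects on the 2 diets differed by -0.42, which did not pass (adjusted p = 0.234).

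Hpx per 100 Hp reads was 82.7 to 99.1 in CDAHFD controls and 59.1 to 71.9 under Mdm2ASO, with no overlap. On HFHC its mean was 99.9 ± 7.06 (SD, n = 4) and 119 ± 13.1 (n = 3), and the ranges overlapped. Hmox1, the haem-degrading enzyme that acts on haem delivered by Hpx, rose on HFHC by 2.38 on the log2 scale (SE 0.15, adjusted p = 3.9e-06) and fell by 0.76 on that scale on CDAHFD (SE 0.19, adjusted p = 0.0181). Red cell markers moved with Hmox1 on HFHC: 6 of 6 rose, against 16.8% of all genes. Their summed level was 1879 to 3395 in controls and 6905 to 16628 under Mdm2ASO. On CDAHFD 0 of 5 tested red cell markers changed. The part of red cells in the haem-related results was not tested.

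Cp (ENSMUSG00000003617, chromosome 3, 19957054 to 20009145, plus strand, GRCm38) encodes the copper-carrying ferroxidase of plasma, and it fell on both diets. On HFHC it was 29272, 27697, 28498 and 28675 in controls and 19876, 17588 and 17318 in Mdm2ASO libraries 6-7, 9 and 10. The mean fell to 64.0% (log2 fold change -0.65, SE 0.11, adjusted p = 0.00219). Cp on CDAHFD was 29875, 33591, 29989, 29863 and 29981 in controls and 17803, 17387, 14647, 18167 and 18937 under Mdm2ASO. The mean fell to 56.7% (-0.82, SE 0.10, adjusted p = 2.7e-04). Controls varied little around their mean, with a coefficient of variation of 2.28% on HFHC and 5.35% on CDAHFD. The effects on the 2 diets differed by -0.18 (95% interval -0.46 to 0.11, adjusted p = 0.389). Cp stayed past the threshold under every alternative run on each diet (18 on HFHC and 20 on CDAHFD).

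Lcn2 (ENSMUSG00000026822, chromosome 2, 32384633 to 32388252, minus strand, GRCm38) encodes the protein that withholds iron from bacteria by binding their siderophores. It is made by hepatocytes in the acute phase and also stored in neutrophil granules. On CDAHFD it was 9371, 9979.7, 11470.0, 10283 and 14599 in controls and 4412, 6999, 2901, 7626 and 6831 in Mdm2ASO replicates 6 to 10. The groups did not overlap, and the mean fell to 51.6% (log2 fold change -1.02, SE 0.22, adjusted p = 0.00984). Of 12 neutrophil markers tested on CDAHFD, 1 rose (Cebpe) and 0 fell. The share that rose (8.33%) was near the 6.12% of all genes, and 6.86% of all genes fell. S100a8 was at 26.8 to 70.1 in controls and 22.0 to 67.9 under Mdm2ASO.

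On HFHC, Lcn2 was 5138, 3434, 3420.4 and 3774 in controls and 2948, 2271 and 3320.0 in Mdm2ASO libraries 6-7, 9 and 10. The groups did not overlap, but the test was not passed (log2 fold change -0.47, SE 0.17, adjusted p = 0.0617). Neutrophil markers moved the other way on this diet: 12 of 13 rose (92.3%, against 16.8% of all genes) and 1 (Cebpe) fell (7.69%, against 13.8%). Their median log2 fold change was 3.08. S100a8 was 32.4 to 98.9 in controls and 496 to 859 under Mdm2ASO, and S100a9 was 43.1 to 135 and 541 to 887. Ly6g was at 0.999 or less in controls and 2.84 to 7.41 under Mdm2ASO. The part of neutrophils in the Lcn2 level was not tested. The Lcn2 effects on the 2 diets differed by -0.56 (95% interval -1.27 to 0.16, adjusted p = 0.259).

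Lbp (ENSMUSG00000016024, chromosome 2, 158306493 to 158332852, plus strand, GRCm38) encodes the plasma protein that passes lipopolysaccharide to Cd14 and Tlr4. On CDAHFD it was 4679.7, 4649, 3345, 4672 and 3884 in controls and 2469, 3051, 1904, 2369 and 2526 in Mdm2ASO replicates 6 to 10. All 5 Mdm2ASO libraries were below all controls, and the mean fell to 58.0% (log2 fold change -0.79, SE 0.13, adjusted p = 0.00163). On HFHC the ranges were 3035 to 3971 and 2513 to 3521, and overlapped (-0.22, 95% interval -0.52 to 0.08, adjusted p = 0.240).

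Partners and receptors of these proteins were counted next. On HFHC 5 of 14 rose and 1 fell (35.7% and 7.14% of the list, against 16.8% and 13.8% of all genes; median 0.03). Those that rose were Hmox1, the formyl peptide receptor Fpr2 that serum amyloid A can engage (log2 fold change 5.04, SE 0.42, adjusted p = 2.0e-05), Tlr4 (2.12, SE 0.18), Tlr2 (1.31, SE 0.15) and Mmp9 (1.91, SE 0.24), whose protein forms a complex with Lcn2. The high-density lipoprotein receptor Scarb1 fell (-0.36, adjusted p = 0.0448). On CDAHFD 1 of 14 rose, the Lcn2 receptor Slc22a17 (0.82, adjusted p = 0.0417), and 3 fell, which were Hmox1, Scarb1 (-0.64, adjusted p = 0.00626) and Tlr2 (-0.90, adjusted p = 0.0386). The median was -0.08. The share that rose (7.14%) was near the 6.12% of all genes, and 21.4% fell against 6.86%.

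Cytokine and signalling genes upstream of the acute phase response were taken as a list of 41. On HFHC 16 rose and 3 fell (39.0% and 7.32% of the list, against 16.8% and 13.8% of all genes), with a median of 0.44. Among those that rose were Nfkb1 (1.08, SE 0.08, adjusted p = 7.5e-06), Myd88 (0.89, SE 0.08), Nfkbiz (1.56, SE 0.16), Nfkbia (0.91, SE 0.11) and Socs3, an inhibitor that STAT3 induces (1.25, SE 0.15). Stat3 (0.54, SE 0.10), Cebpd (1.07, SE 0.32), Il1b (2.47, SE 0.56) and Tnf (1.84, SE 0.45) rose too. Il6 rose from few reads: it was 0 to 2.25 in controls and 14.1 to 19.4 under Mdm2ASO (adjusted p = 0.00149). Cebpb was 2961 to 4184 and 2403 to 7522 and did not pass. The hepatocyte factor Cebpa fell (-0.46, SE 0.09, adjusted p = 0.00423), as did Il22ra1 (-1.09, SE 0.21), the receptor chain for interleukin-22.

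On CDAHFD the same list had 3 genes that rose and 2 that fell (7.32% and 4.88%, near the 6.12% and 6.86% of all genes), with a median of -0.05. Cebpb (0.49, SE 0.12, adjusted p = 0.0169), Socs3 (1.01, SE 0.31, adjusted p = 0.0434) and Lif (1.26, adjusted p = 0.0426) rose. Il22ra1 (-1.58, SE 0.27, adjusted p = 0.00249) and Relb (-0.74, adjusted p = 0.0279) fell. Il6, Il1b, Tnf, Stat3, Cebpd and Nfkbia did not pass on this diet. The 2 diets differed by the direct test for 14 of the 41 genes. The effect was lower on CDAHFD for 13 (31.7%, against 13.6% of all genes) and higher for 1 (2.44%, against 9.83%). Among the 13 were Stat3 (-0.56, adjusted p = 0.0131) and Nfkb1 (-1.21, adjusted p = 4.9e-07).

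Of the 34 other positive acute phase genes, 7 rose and 2 fell on HFHC, with a median of -0.03. The share that rose (20.6%) was near the 16.8% of all genes, and 5.88% fell against 13.8%. The protease inhibitor gene Serpina3n rose (0.88, SE 0.15, adjusted p = 0.00169), as did the pentraxin Apcs (1.03, SE 0.20, adjusted p = 0.00369), Fgl1 (0.88, SE 0.19), Mt2 (0.85, SE 0.19) and Serpina3m (0.78, SE 0.18). Vnn1 fell (-0.61, SE 0.08, adjusted p = 2.7e-04). Mbl2, which rose on both diets, was at 0.57 on HFHC (SE 0.17, adjusted p = 0.0318). Its effects on the 2 diets differed by 0.69, which did not pass (adjusted p = 0.0874). On CDAHFD 2 rose and 3 fell (5.88% and 8.82% of the list, near the 6.12% and 6.86% of all genes; median -0.02): the mannose binding lectin Mbl2 (1.26, SE 0.18) and Serpina1c (0.63, SE 0.14) rose, and the fibrinogen chain Fga (-0.77, SE 0.17), the ferrireductase Steap4 (-0.59, SE 0.13) and the complement inhibitor Serping1 (-0.38, SE 0.11) fell. Of 12 negative acute phase genes, whose products fall in inflammation, 1 fell on HFHC (Apoa4, -1.09, SE 0.28) and 0 rose. The share that fell (8.33%) was below the 13.8% of all genes. On CDAHFD 2 rose, Serpina6 (0.51, SE 0.12) and Fetub (0.48, SE 0.13), which was 16.7% against 6.12% of all genes.

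**Figure D4:**
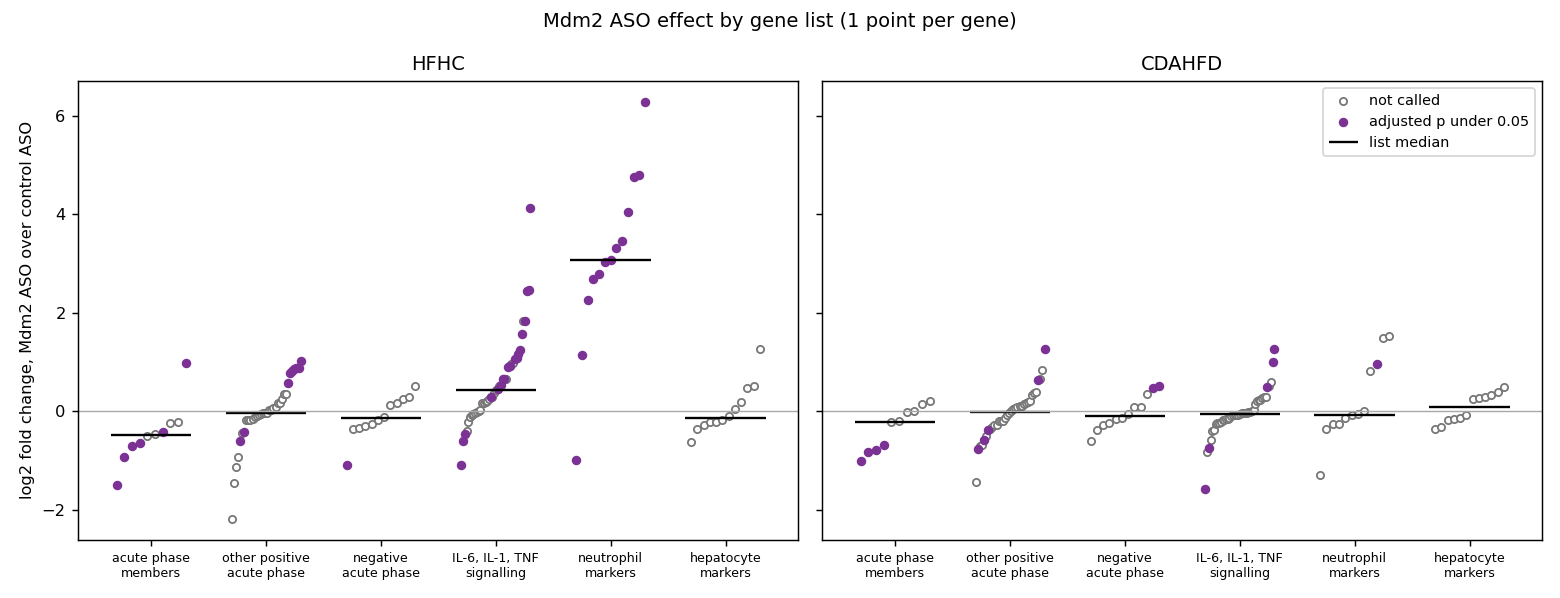
Log2 fold change under Mdm2ASO for each gene tested of 6 lists, on HFHC (left) and CDAHFD (right). Filled points had an adjusted p under 0.05, and lines are list medians. On HFHC the neutrophil list has a median of 3.08 and the acute phase members one of -0.48, while on CDAHFD the medians are -0.07 and -0.22.

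Libraries of 1 group also differed from each other in these genes. After the mean of each group was subtracted, Saa2 followed Saa1 over the 17 libraries with Pearson r = 0.97 and Spearman rho = 0.96 (permutation p = 2.0e-05 and 1.0e-05, from 100000 permutations within groups, the second being the smallest they can give). The adjusted p over the 9 relations was 1.8e-04 for r and 9.0e-05 for rho. Orm2 had r = 0.70 and rho = 0.86 (permutation p = 0.00622 and 4.7e-04, adjusted 0.0280 and 0.00211). Orm1 had r = 0.64 and rho = 0.72 (permutation p = 0.0160 and 0.00701, adjusted 0.0454 and 0.0210). Without the 2 libraries farthest from the median in Saa1, r was 0.97 for Saa2, 0.67 for Orm2 and 0.59 for Orm1.

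Lcn2 (r = 0.60, rho = 0.58, permutation p = 0.0247 and 0.0376, adjusted 0.0454 and 0.0846) passed by r alone. Hp (r = 0.59, rho = 0.40, permutation p = 0.0252 and 0.152, adjusted 0.0454 and 0.228) did so too, and its r was 0.34 without those 2 libraries, so it rests on them. Saa3 (r = 0.52), Lbp (0.23), Hpx (0.22) and Cp (0.03) did not pass (adjusted permutation p = 0.103, 0.498, 0.498 and 0.929). Within diets, r over the 7 HFHC libraries was 0.97 for Saa2 and -0.64 for Saa3 (adjusted permutation p = 0.124 and 0.536). Within these groups only 144 orders are possible, so the smallest permutation p is 0.00694 and a single relation cannot go below 0.0625 after adjustment over 9. Over the 10 CDAHFD libraries r was 0.97 for Saa2 and 0.95 for Saa3 (adjusted permutation p = 9.0e-04 and 0.00310).

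Among all 16332 other genes, those closest to Saa1 by this measure were Saa2 (0.97), Gnl1 (0.84), Drap1 (0.84), Tsg101 (0.82) and Wfdc2 (0.82). This is a description over 17 libraries, and all genes of a library share its depth and scaling. In that order Orm2 ranked 67 and Cp 8351. Mdm2ASO replicates 7 and 10 on CDAHFD were above their group mean in 10 of 10 members, and replicate 8 was below it in 10 of 10.

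**Figure D5:**
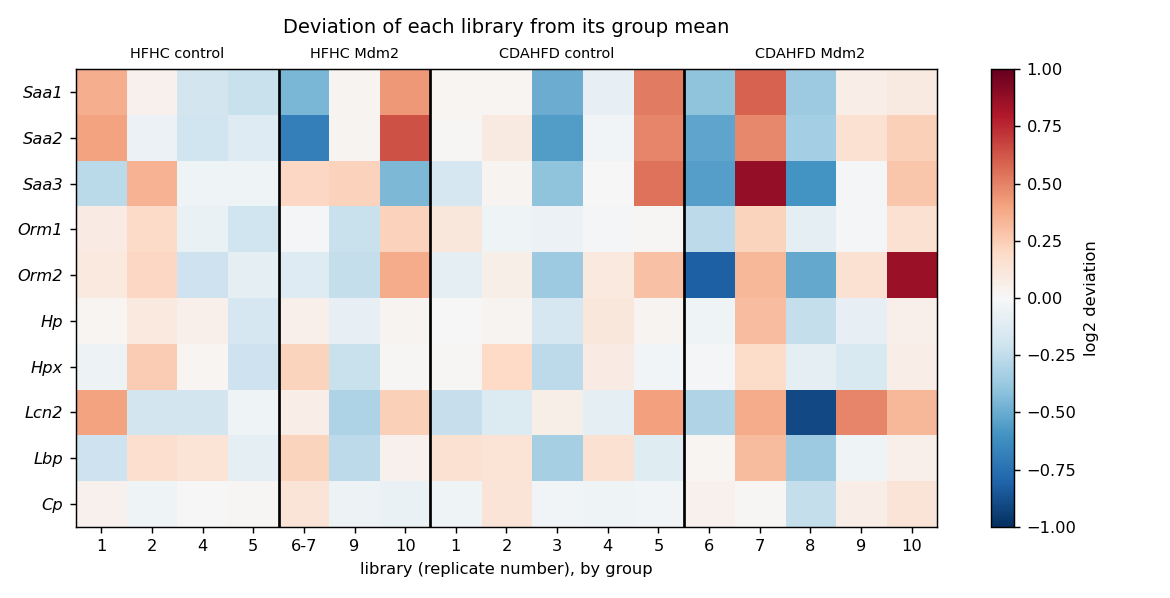
Log2 deviation of each gene in each library from the mean of its group. Columns are libraries by group and replicate number, and rows are genes. The rows of Saa1 and Saa2 are alike in most libraries (r = 0.97), and Mdm2ASO replicate 8 on CDAHFD is below its group mean in every row.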

How the data were processed

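Liver mRNA of 18 mouse samples was sequenced from strand-specific libraries, per the labels. Per the submitters' processing notes, the aligner was STAR 2.7.10b, the build GRCm39 and the counter featureCounts (Subread 2.0.3). Deposited values are a signal: read counts per gene after TMM scaling by the authors, per the labels, in 1 table per diet with 33235 genes and 0 columns of samples outside the series. Dividing by 1 constant per library gave whole numbers for 100% of values (within 0.001), so whole reads were recovered for the edgeR and DESeq2 alternatives.

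A gene was tested if it reached 1 in a number of libraries equal to the smaller group's size, by limma-trend on log2(value + 0.5), with Benjamini-Hochberg adjusted p under 0.05. Fold changes are on that scale. The words rose and fell mean that the threshold was passed. Each diet was fitted alone, and diets were compared through an interaction contrast over genes passing in both tables. The tables were normalized separately, so no levels were tested across diets. The labels name no batch. HFHC Mdm2ASO replicates 6 and 7 differed in 0 genes, while any other pair within a group differed in 18001 genes or more, and they entered as 1 library.

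Named genes are all 10 members, Mdm2, up to 6 called genes of each list per diet by p, defining cell markers, Il6, Il1b, Tnf, Stat3, Socs3, Cebpb, Cebpd and Nfkbia, and the 5 genes closest to Saa1. Where that rule did not name them, these genes were added after their values were seen: Gpnmb, Cebpe, Cebpa, Il22ra1, Cd5l, Adrb3, Cfd, Pnpla2, Apoa1, Apoa2, Apob, Asgr1 and Asgr2. The genes given for a difference between diets were added likewise. The result of 1 list gene is not reported here. The members and the 10 lists were chosen with earlier results of these data known. List results not given in the text follow. On HFHC 5 of 9 cholangiocyte markers were lower (55.6%, against 13.8% of all genes) and 0 of 4 adipocyte markers passed the test. On CDAHFD 0 of 9 cholangiocyte markers passed, though their median log2 fold change was 1.05. By the direct test 7 of the 9 had a higher effect on CDAHFD (77.8%, against 9.83% of all genes). On CDAHFD 1 of 3 adipocyte markers was higher (Adrb3), against 6.12% of all genes. There 1 of 14 macrophage markers was lower (Cd5l), and this 7.14% was near the 6.86% of all genes. Lengths are those of the first protein-coding transcript of GENCODE M21. Identities of transcripts were computed in place of the planned identities of proteins.

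On simulated reads limma recovered 82% of genes changed 2-fold and 100% changed 4-fold on HFHC (17117 genes), 88% and 100% on CDAHFD (16626 genes), and 62% and 95% for the difference (16098 genes). The changed genes were drawn only from genes well above the low-value filter, so recovery among low genes is not known. They were also far fewer than the genes called in the data. Unchanged genes made up 14 of 196 limma calls on HFHC, 9 of 197 on CDAHFD and 4 of 161 for the difference. On HFHC they made up 16 of 199 calls with edgeR and 41 of 234 with DESeq2. Versions were R 4.3.3, limma 3.58.1, edgeR 4.0.16, DESeq2 1.42.0 and Python 3.11.15. Alternatives were other pseudocounts (1 and 5), filters, scalings and tools, 1 fit over all groups, the 2 identical samples counted separately, a replicate block and each library left out.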

Additional observations from a re-analysis of the deposited data

Results flagged for a closer look

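The Mdm2ASO effect differed between the diets for 3 members by the limma contrast of CDAHFD minus HFHC: 1.14 for Saa1, 1.66 for Saa2 and -0.57 for Lbp on the log2 scale (adjusted p = 0.0147, 0.00273 and 0.0486). Cp in control replicate 2 on CDAHFD, at 33591 normalized counts, stood apart from the other 4 controls, with a gap to the nearest of 0.966 of the group's range. It was the 1 such library among 30 groups of a member examined, where chance gives about 1 in 20. Without that replicate, Cp still fell on CDAHFD under the same test.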

How the results depend on the processing

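Over the alternatives run for each member on each diet and for the difference (660 values), 600 kept the direction and the side of the threshold, 24 lost the call, 18 gained it and 18 turned in sign, all at values that had not been called. On HFHC, 5 to 8 members were called under the alternatives (6 as reported) and 5 to 7 without 1 library, of 3684 to 6652 genes in all. With edgeR 7 and with DESeq2 8 were called. Orm1 lost its call without control replicate 1, 2 or 4, without library 6-7 or 9, and with equal library totals or quantile normalization, and the cause was not tested. Orm2 lost it with 1 fit over all 4 groups. On CDAHFD 4 members were called under all 20 alternatives, while the genes called in all were 1232 to 2283 when 1 library was left out, 1232 without control replicate 2 and 1426 without Mdm2ASO replicate 8, against 2181. For the difference between diets, 5 members were called with replicates 6 and 7 as 2 samples and 1 to 4 without 1 library.

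Values that turned in sign were Hpx on HFHC (0.09) and the difference in Hp (-0.02) with quantile normalization. On CDAHFD, Saa3 turned with quantile normalization (0.02), median-of-ratios scaling (0.00), edgeR (0.07) and DESeq2 (0.08), and without 1 library (0.00, 0.13, 0.13 and 0.15, in a range of -0.23 to 0.15 over libraries left out). Orm1 turned there with equal totals (-0.01) and quantile normalization (-0.02), and without 1 library (-0.01, -0.01, 0.00, -0.05 and -0.04). Orm2 was 0.01 without Mdm2ASO replicate 6, in a range of -0.42 to 0.01. With the HFHC libraries alone the relations to Saa1 that passed were 0, against 5 over all libraries, and r was -0.64 for Saa3, -0.19 for Hpx, -0.45 for Lbp and -0.62 for Cp. The 144 orders possible there cannot bring a single relation below 0.0625 after adjustment, so that 0 does not show that the relations are absent. Before adjustment the permutation p of r was 0.0138 for Saa2 and 0.180 or more for the other members.

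The ASO groups of 1 diet share no replicate numbers, so a replicate block could be fitted only for the difference between diets, where 4 members and 3033 genes were called. With the block Saa3 passed (-1.19, adjusted p = 0.0240), Lbp, Saa1 and Saa2 kept their calls. Same-numbered libraries of the 2 diets correlated at -0.07 to 0.11, with 1 of 7 pairs over 0.1. Of the 7, 4 were best with their own number, and whether they share more than a number was not tested.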
